A study of Homo sapiens with 4 samples.

Results

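Tetraspanins are a family of small membrane proteins that assemble with one another and with partner proteins into membrane domains. The family as taken here holds 33 genes: TSPAN8, the gene silenced in the study, 21 other genes named TSPAN, and CD9, CD37, CD53, CD63, CD81, CD82, CD151, UPK1A, UPK1B, PRPH2 and ROM1. Members were chosen by symbol alone: every probe set of the array whose only gene in the platform annotation is one of these genes was taken, whatever its value. This gave 60 of 54613 tested probe sets and 32 of 19775 named genes, because TSPAN19 had no such probe set. Total RNA from the human neuroblastoma cell line SH-SY5Y was measured on 3'-labelled oligonucleotide arrays. There were 2 groups with 2 arrays each. The TSPAN8 knockdown cells had received small interfering RNA against TSPAN8 through the self-delivering Accell system, and the other group was the transfection control. Both grew in DMEM/F12 medium with serum and were incubated for 72 h. The siRNA sequence and the reagent given to the control cells are not given in the sources used here, and all samples come from 1 cell line. Whether replicates were grown as separate cultures is not stated in the labels, so the p-values rest on a spread between samples that may be technical.

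Each tetraspanin crosses the membrane 4 times and exposes a large extracellular loop through which it binds partners such as integrins, immunoglobulin-superfamily proteins and proteases. Some members, among them CD9, CD63 and CD81, are found on most cell types and on extracellular vesicles, whereas others are made in a few tissues. TSPAN8 is best known from gastrointestinal epithelium and carcinomas, where it is linked to cell motility and to vesicles. In the nervous system, TSPAN2 is known from myelinating glia and TSPAN7 from synapses.

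The arrays were nearly alike over all probe sets, with Pearson's r between 0.997 and 0.998 for every pair. SH-SY5Y identity was checked with noradrenergic markers. Of 10 listed, 8 had a single-gene probe set and 7 of these stood above the background limit described below. The exception was TH, the tyrosine hydroxylase gene, with a mean of 6.08 in knockdown cells and 5.96 in control cells. Markers of leukocytes (5 measured), epithelium (6), photoreceptors (3), urothelium (3) and Schwann cells or melanocytes (4) all lay at or under that limit in control cells. Of 10 mesenchymal markers, 8 lay above it. Summed over its genes, the mesenchymal list came to 95.1 (replicate 1) and 91.7 (replicate 2) in knockdown cells, against 91.6 and 90.8 in control cells. The noradrenergic sum was 83.7 and 84.4 in knockdown cells, against 85.0 and 84.9 in control cells. Knockdown replicate 1 thus stood apart from the other 3 arrays in its mesenchymal level. The noradrenergic sum was lower on both knockdown arrays than on the control arrays. Of the 8 noradrenergic genes, 7 were below control, beside 55.6% of all genes, and none had an adjusted p under 0.05 (limma). Scan dates were not analysed here, so no batch could be examined.

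The 250 bases upstream of the annotated start are shown for 3 members whose values the results turn on or that mark the range of signal: TSPAN8, which fell, TSPAN2, which had the largest increase measured, and TSPAN13, which was bright on every array. The sequences are from RefSeq (GRCh38.p14), written 5' to 3' on the strand of the gene, with each CG dinucleotide in capitals. They lie at chr12:71158000-71158249 on the minus strand (TSPAN8), chr1:115089504-115089753 on the minus strand (TSPAN2) and chr7:16753505-16753754 on the plus strand (TSPAN13).
TSPAN8: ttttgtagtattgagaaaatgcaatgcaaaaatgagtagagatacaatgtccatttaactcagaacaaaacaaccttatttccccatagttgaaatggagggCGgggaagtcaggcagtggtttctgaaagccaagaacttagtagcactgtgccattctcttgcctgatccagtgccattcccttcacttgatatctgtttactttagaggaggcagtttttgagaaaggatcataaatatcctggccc
TSPAN2: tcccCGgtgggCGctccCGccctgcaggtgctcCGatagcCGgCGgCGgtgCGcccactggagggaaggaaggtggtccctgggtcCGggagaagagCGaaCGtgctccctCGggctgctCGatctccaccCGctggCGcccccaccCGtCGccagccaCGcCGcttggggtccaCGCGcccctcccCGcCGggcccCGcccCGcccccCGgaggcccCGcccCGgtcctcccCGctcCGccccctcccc
TSPAN13: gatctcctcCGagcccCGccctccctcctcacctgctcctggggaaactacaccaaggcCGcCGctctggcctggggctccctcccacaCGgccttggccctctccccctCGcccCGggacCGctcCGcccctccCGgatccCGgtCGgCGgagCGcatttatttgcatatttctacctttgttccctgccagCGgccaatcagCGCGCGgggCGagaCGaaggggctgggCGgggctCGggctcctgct
The TSPAN8 stretch holds 1 CG, that of TSPAN2 holds 30 and that of TSPAN13 holds 22, where the median of all 35116 such windows is 11. How these counts stand beside the signal of the other members is given after the values.

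TSPAN8 was the member that fell, and it was the only probe set of the array to pass the test. Its single probe set read 6.25 and 6.35 (log2) on the knockdown arrays, against 7.52 and 7.62 on the control arrays. The groups did not overlap, and the gap between them was far wider than the gap between arrays of a group. The log2 difference, knockdown minus control, was -1.27 ± 0.062 (SE; 95% confidence interval -1.41 to -1.12; limma, adjusted p = 0.0026). By the same test 1 of the 60 member probe sets was called, beside 0.00183% of all 54613 probe sets called. No member was called higher, nor was any other probe set of the array by limma with adjustment (0 higher), where 2030 were higher at an unadjusted p under 0.05.

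To judge which members gave more than background, probe sets of genes restricted to unrelated tissues (liver, pancreas, muscle, skin, lens and others, 52 genes with 82 probe sets) were read on the control arrays. Their median was 6.22 and their 95th percentile 6.89, and this percentile was taken as the background limit. Of all probe sets, 40.8% stood above it. TSPAN8 was above the limit on both control arrays and below it on both knockdown arrays, where it came close to the median of the tissue-restricted probe sets. Its difference of -1.27 is therefore a difference of signals and does not give the size of the change in the transcript. With the background limit in place of the knockdown signal, the mean control signal of TSPAN8 was 1.59-fold higher (mean signals 6.30 in knockdown and 7.57 in control cells). This ratio leaves out the spread between arrays and uses a limit taken from other probe sets, so it is no minimum for the gene. Signals of different probe sets depend on how well each binds, so the limit sorts genes coarsely and gives no order of transcript abundance among them.

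Each gene was read at 1 probe set, the one with the highest mean over the 4 arrays. By this choice 22 of the 32 measured members stood above the limit in control cells, beside 11013 of all 19775 genes. The limit itself was taken over all probe sets of the tissue-restricted genes. The count was 25 with the 90th percentile (6.68) as the limit, which TSPAN1, TSPAN16 and ROM1 also passed. It was 21 with the third highest tissue-restricted value (7.06), which TSPAN10 (7.03) did not reach. The other probe set of TSPAN10 read 5.79 in control cells. Above the limit were all 5 widely expressed members (CD9, CD63, CD81, CD82, CD151), all 6 members that bind the protease ADAM10 (TSPAN5, TSPAN10, TSPAN14, TSPAN15, TSPAN17, TSPAN33), 4 of 5 members with described roles in brain or retina, and TSPAN4, TSPAN9, TSPAN11, TSPAN13, TSPAN18 and TSPAN31. At or under it were the leukocyte members CD37, CD53 and TSPAN32, the epithelial and urothelial TSPAN1, UPK1A and UPK1B, the photoreceptor proteins PRPH2 and ROM1, TSPAN16, and TSPAN2. The highest control signals were those of CD63 (12.28 ± 0.040, SD, n = 2), TSPAN3 (11.62 ± 0.011) and TSPAN13 (11.51 ± 0.0050), each above the 97th percentile of its arrays.

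**Figure D1:**
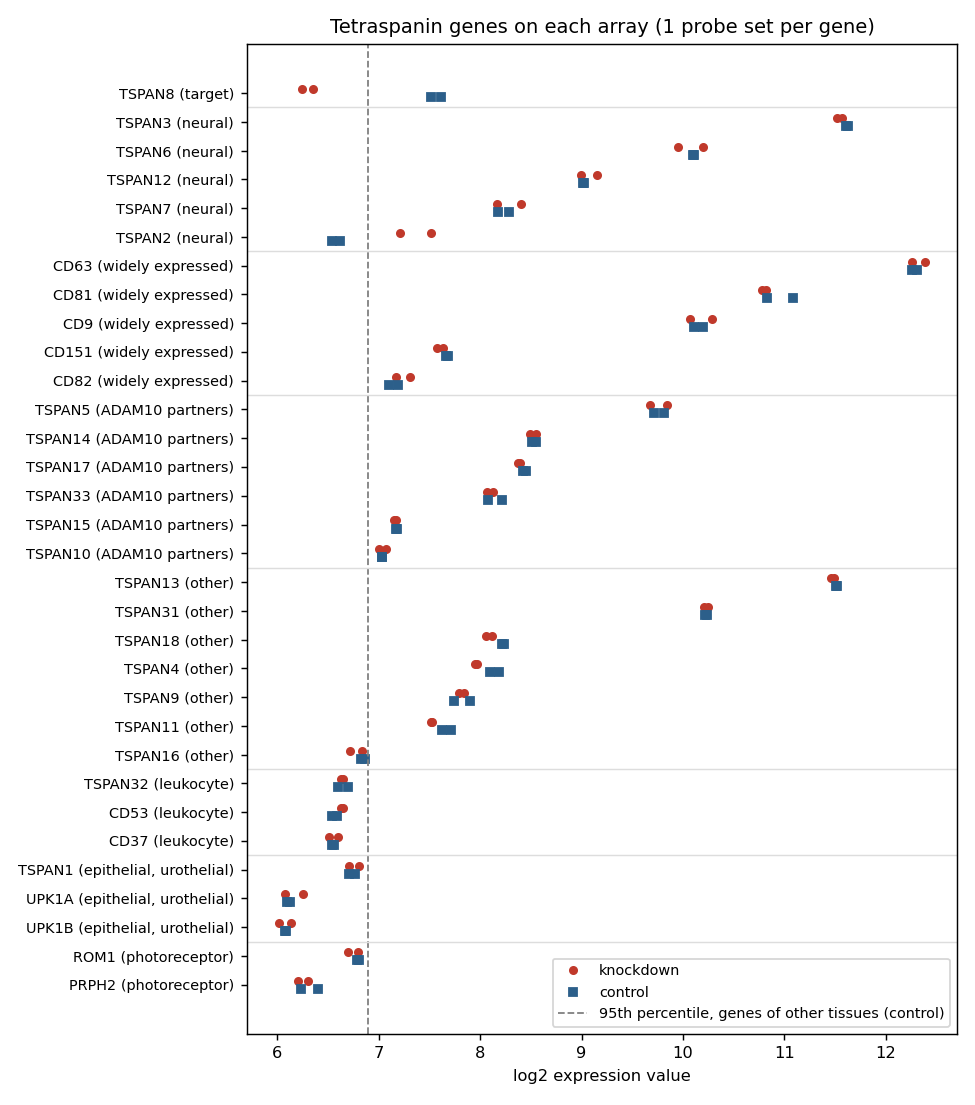
Log2 expression value (x axis) of each measured tetraspanin gene (1 probe set per gene), with knockdown arrays as circles and control arrays as squares, ordered by role and by control mean. The dashed line is the background limit of 6.89, which TSPAN8 lay below in knockdown and above in control cells, while TSPAN2 lay above it in knockdown and below it in control cells.

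TSPAN2 had the highest log2 difference in signal of all 54613 probe sets, at 1 of its 3 probe sets. This gene encodes a tetraspanin of oligodendrocytes. Its probe set 227236_at read 7.52 and 7.21 on the knockdown arrays, against 6.62 and 6.54 on the control arrays. Both knockdown values lay above the background limit and both control values below it, so the groups did not overlap. The mean was 7.36 ± 0.22 (SD, n = 2) in knockdown cells and 6.58 ± 0.060 (SD, n = 2) in control cells. The log2 difference was 0.78 ± 0.096 (SE; 95% confidence interval 0.56 to 1.01), and it did not pass the test (limma, adjusted p = 0.36). Because the control signal was not above background, the difference and its place over the array are those of signals. With the limit in place of the control signal, the mean knockdown signal of 227236_at was 1.39-fold higher. This ratio is for that probe set alone and leaves out the spread between arrays, so it is no minimum for the gene. The knockdown arrays differed from each other more than the control arrays did, with replicate 1 the higher.

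The other probe sets of TSPAN2 gave no such difference. Probe set 227233_at read 6.03 and 6.23 on the knockdown arrays, against 6.06 and 6.07 on the control arrays, and 214606_at read 6.23 and 6.27 against 6.23 and 6.16. Their log2 differences were 0.069 and 0.056, with intervals of -0.098 to 0.23 and -0.070 to 0.18, neither of which reaches the lower bound of the first probe set. All 8 values of these 2 probe sets lay under the background limit. Averaged over its 3 probe sets, TSPAN2 differed by 0.30 (limma, adjusted p = 0.27). Which transcripts of TSPAN2 the probe sets read was not analysed here.

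The TSPAN2 difference depended on the arrays included. Without knockdown replicate 1 it was 0.63 (limma, adjusted p = 0.00024), without knockdown replicate 2 it was 0.94 (adjusted p = 4.4e-08), and without control replicate 1 or 2 it was 0.83 and 0.74 (adjusted p = 0.40 and 0.54). Both calls arose with a lone knockdown array, which is then assumed to vary like the control arrays, and 25 and 1026 probe sets of the whole array were called in those fits. Mesenchymal markers also had their highest sum on knockdown replicate 1. Of these 10 markers, 9 had a difference above zero, beside 8787 of all 19775 genes, and 0 had an adjusted p under 0.05 (limma). Schwann cell and melanocyte markers (4 measured, S100B and SOX10 among them) lay under the background limit, with sums of 26.3 and 26.5 in knockdown cells, against 26.2 and 26.3 in control cells. Among the mesenchymal markers, COL1A2 and PRRX1 were the 2 under the background limit. The part of mesenchymal, Schwann or melanocyte cells in the TSPAN2 value was not tested, and with knockdown replicate 1 left out the value was 0.63. In a bulk sample, a change in the share of cells of a type and a change in RNA per cell cannot be told apart.

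**Figure D2:**
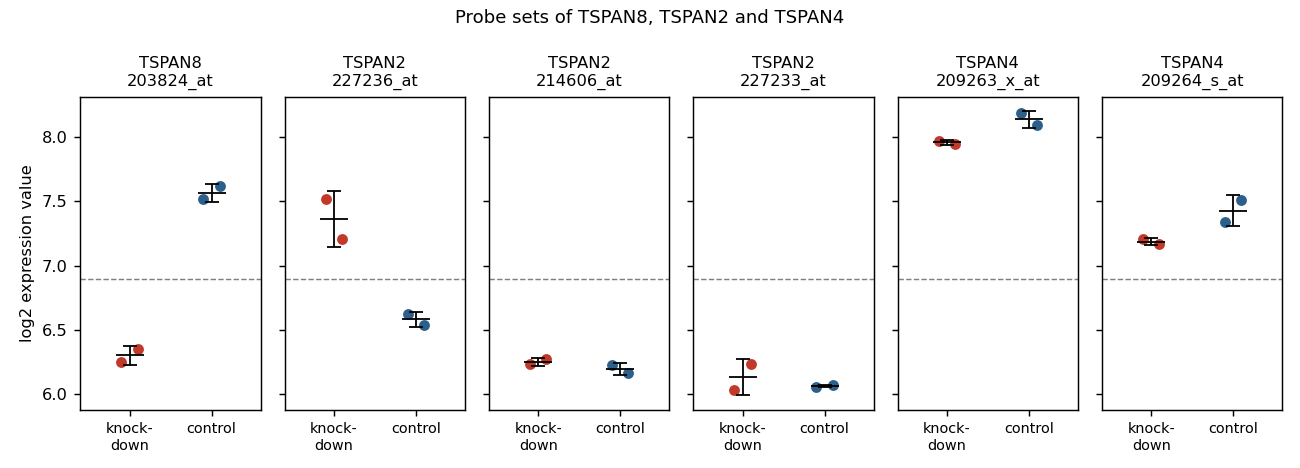
Log2 expression value (y axis) at each probe set of TSPAN8, TSPAN2 and TSPAN4, for knockdown and control arrays. Points are arrays, the horizontal mark with bars is the mean ± SD (n = 2) and the dashed line is the background limit of 6.89. TSPAN2 separates the groups at 227236_at (7.52 and 7.21 against 6.62 and 6.54), while the other probe sets of TSPAN2 stay under the limit.

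TSPAN4, a tetraspanin of migrasomes and the cell surface, had the lowest differences after TSPAN8, and both of its probe sets agreed. At 209263_x_at it read 7.97 and 7.95 on the knockdown arrays, against 8.19 and 8.09 on the control arrays. At 209264_s_at it read 7.21 and 7.17 on the knockdown arrays, against 7.34 and 7.51 on the control arrays. The groups did not overlap at either probe set. The log2 differences were -0.18 ± 0.056 (SE) and -0.24 ± 0.067 (SE), and neither passed the test (limma, adjusted p = 0.60 for both). Both probe sets are of types that can bind several transcripts, and they share the gene's RNA, so they are not independent measurements. With 1 array left out, the first ranged from -0.23 to -0.13.

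TSPAN11 and TSPAN18 were the other members below control with an unadjusted p under 0.05. TSPAN11 read 7.51 and 7.52 on the knockdown arrays, against 7.71 and 7.63 on the control arrays, a log2 difference of -0.15 ± 0.055 (SE; limma, adjusted p = 0.61). TSPAN18, known from endothelial calcium entry, read 8.06 and 8.12 on the knockdown arrays, against 8.22 and 8.24 on the control arrays, a log2 difference of -0.14 ± 0.053 (SE; limma, adjusted p = 0.62). The groups did not overlap for either gene. The second probe set of TSPAN18 did not separate them, with 7.77 and 7.91 in knockdown cells, against 7.89 and 7.83 in control cells (log2 difference -0.021).

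Among the other members without a role group, TSPAN13 read 11.48 and 11.46 on the knockdown arrays, against 11.52 and 11.51 on the control arrays. The log2 difference was -0.042, with an interval of -0.16 to 0.076. TSPAN31, which lies next to CDK4 and is co-amplified with it in sarcomas, differed by -0.00026 and -0.0092 at its 2 probe sets. TSPAN9, known from platelets, differed by -0.0063 and 0.031, and the sign of its representative value turned in several alternatives given in the closing section. TSPAN16 differed by -0.075, -0.027 and 0.069 at its 3 probe sets, all under the background limit in control cells.

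None of the widely expressed members passed the test. CD81, a partner of integrins, read 10.82 and 10.78 on the knockdown arrays, against 11.08 and 10.83 on the control arrays. The arrays did not overlap, but the 2 control values lay farther apart than the nearest values of the groups. The log2 difference was -0.15 ± 0.082 (SE; limma, adjusted p = 0.69), from -0.28 to -0.026 with 1 array left out. CD9, needed for sperm and egg fusion in mice, read 10.28 and 10.07 on the knockdown arrays, against 10.20 and 10.11 on the control arrays, with a log2 difference of 0.017. CD63, the marker of late endosomes and exosomes, read 12.39 and 12.26 on the knockdown arrays, against 12.25 and 12.31 on the control arrays, with a log2 difference of 0.040. The knockdown arrays of both genes lay on either side of a control value. CD151, a partner of laminin-binding integrins, differed by -0.065 and CD82, a suppressor of metastasis, by 0.096 and 0.063 at its 2 probe sets. Over the 8 probe sets of this group 0 passed the test (limma), and 0 had an unadjusted p under 0.05.

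The members that bind ADAM10 escort this protease to the surface and steer its choice of substrates. Their 11 probe sets differed by -0.053 to 0.092, none passed the test (limma) and none had an unadjusted p under 0.05. TSPAN5 read 9.84 and 9.68 on the knockdown arrays, against 9.72 and 9.81 on the control arrays. TSPAN14 read 8.56 and 8.49 on the knockdown arrays, against 8.55 and 8.51 on the control arrays. TSPAN17 read 8.39 and 8.38 on the knockdown arrays, against 8.45 and 8.42 on the control arrays. At these probe sets the groups overlapped for TSPAN5 and TSPAN14 and lay apart by a narrow margin for TSPAN17 (log2 difference -0.053, interval -0.17 to 0.065). At 225388_at, another probe set of TSPAN5, the groups did not overlap. It read 8.22 and 8.14 on the knockdown arrays, against 8.13 and 8.05 on the control arrays (log2 difference 0.092). TSPAN15, which directs ADAM10 to N-cadherin, differed by -0.015, TSPAN33 by -0.046 and TSPAN10, known from pigment cells, by 0.0079. All 95% intervals of this group lay between -0.19 and 0.23. A p that misses the threshold does not show equal levels, and these intervals give the range of differences that the arrays allow.

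Of the members with roles in brain or retina, TSPAN3 and TSPAN6 had differences below zero at every probe set. The 5 probe sets of TSPAN3 differed by -0.10 to -0.028, none past the test. The representative probe set read 11.56 and 11.52 on the knockdown arrays, against 11.62 and 11.61 on the control arrays, without overlap (log2 difference -0.074 ± 0.052, SE; limma, adjusted p = 0.77). Of these 5 probe sets, 2 were under the background limit. TSPAN6, linked to vesicle sorting of the amyloid precursor protein, differed by -0.029 and -0.023 at its 2 probe sets. The brighter one read 10.20 and 9.95 on the knockdown arrays, against 10.10 and 10.11 on the control arrays. TSPAN7, a regulator of glutamate receptor trafficking and a gene of X-linked intellectual disability, read 8.40 and 8.17 on the knockdown arrays, against 8.28 and 8.18 on the control arrays. TSPAN12, a co-receptor in Norrin signalling in retinal vessels, read 9.16 and 8.99 on the knockdown arrays, against 9.02 and 9.01 on the control arrays. At these probe sets of the 3 genes the knockdown values lay on both sides of the control values. The log2 differences were -0.029, 0.055 and 0.060, and knockdown replicate 1 was the higher one in each. The other probe sets of TSPAN12 disagreed in sign. At 230626_at, under the background limit in control cells, the groups did not overlap (log2 difference 0.11), and 230625_s_at differed by -0.055. Over the 22 members above the background limit, replicate 1 was the higher knockdown array for 15, by a median of 0.029, and over all 11013 genes above the limit it was the higher for 56.4%.

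The leukocyte, epithelial, urothelial and photoreceptor members stayed at or under the background limit in both groups, as did the markers of those cell types. The 7 leukocyte probe sets differed by -0.068 to 0.070. The 4 epithelial and urothelial ones differed by -0.0015 to 0.054. PRPH2 and ROM1, partners at the rim of photoreceptor discs, differed by -0.070 and -0.047. None of these 13 probe sets passed the test (limma) or had an unadjusted p under 0.05. At such signals the arrays bound a transcript's level and do not measure it.

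**Figure D3:**
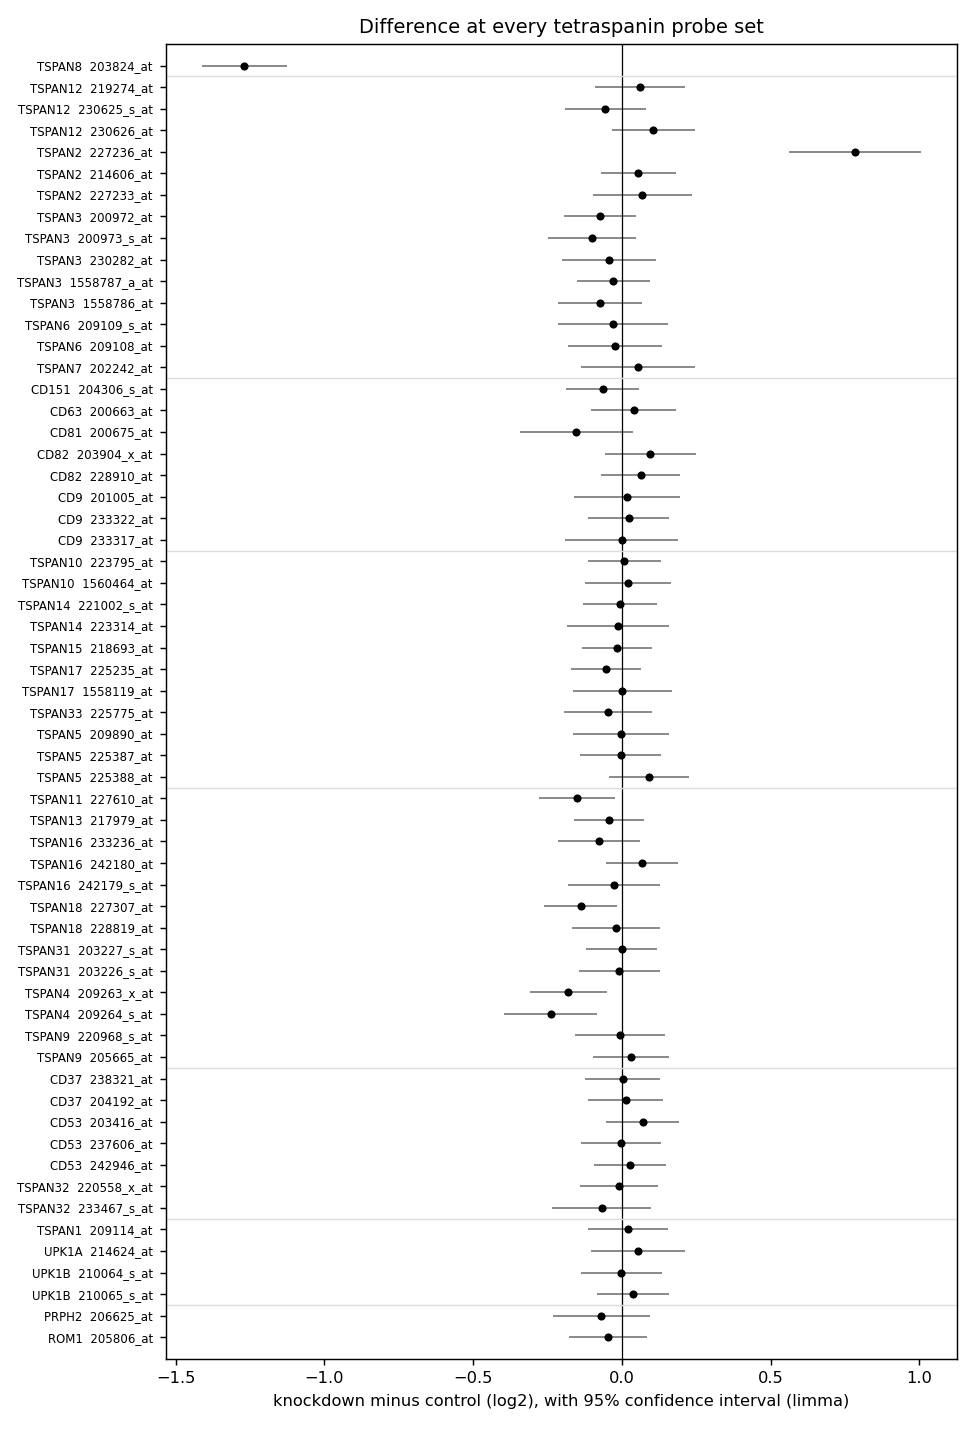
Difference, knockdown minus control (log2, x axis), with its 95% confidence interval (limma) at each of the 60 tetraspanin probe sets, grouped by role. TSPAN8 at -1.27 and probe set 227236_at of TSPAN2 at 0.78 stand apart, and the other 58 lie between -0.24 and 0.11.

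Apart from TSPAN8, 59 probe sets of 31 genes remained, and 0 of them passed the test (limma). At an unadjusted p under 0.05 there were 5 (8.47%), 4 lower and 1 higher, where 7.83% of all probe sets had such a p (4.12% lower and 3.72% higher). The 4 were both probe sets of TSPAN4, that of TSPAN11 and 1 of TSPAN18, and the 1 higher was that of TSPAN2. The groups' arrays did not overlap for 18 of the 59 (30.5%), where they did not overlap for 37.5% of all probe sets. The knockdown arrays were the lower ones for 10 and the higher ones for 8 of these, where the shares over all probe sets were 19.8% and 17.7%. Below control were 35 of the 59 (59.3%), where 50% of all probe sets were. A log2 difference of at least 0.58 in either direction was reached by 1 of the 59, TSPAN2, and by 0.0128% of all probe sets. The median size of the difference, whatever its sign, was 0.042 over the 59 and 0.047 over all probe sets. The share at an unadjusted p under 0.05 lay near that of the whole array. For 58 of the 59 the 95% interval lay within 0.58 on either side of zero, and the exception was TSPAN2.

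With 1 probe set per gene, the 31 other members had a median log2 difference of -0.0063, beside -0.0094 over all 19775 genes. Below control were 20 of the 31 (64.5%), beside 55.6% of all genes. Of the 21 above the background limit, 15 were below control. The share over all genes above that limit was not computed, so this count has no like share beside it. Leaving out either knockdown array moved the median to -0.028 (without replicate 1) and -0.0074 (without replicate 2). Several probe sets represented 19 members. Those of 7 genes were all below control and those of 4 all above, while 8 genes had both signs. The median spread between probe sets of a gene was 0.055, and TSPAN2 had the widest at 0.73.

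Members sit on many chromosomes, with clusters on 11 and 12 in RefSeq. Of the 7 measured members on chromosome 11 (CD81, CD82, CD151, ROM1, TSPAN4, TSPAN18, TSPAN32), 6 were below control, with a median of -0.065, beside 54.3% of the 1143 named genes of that chromosome. TSPAN8 lies on chromosome 12, where the other 5 measured members (CD9, CD63, TSPAN9, TSPAN11, TSPAN31) had a median of -0.00026. Of these 5, 3 were below control, beside 53.4% of the 1036 named genes of that chromosome. These are descriptions of few genes and were not tested.

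RefSeq start windows were at hand for 24 measured members. The number of CG dinucleotides in the 250 bases upstream, read on the gene's strand and taken from the window with most of them, had a median of 20.5 over the 16 members above the background limit and of 4 over the 8 at or under it. Of all windows, 93.9% hold at least 1 CG. At least 11 CG, the median of all windows, were found in 12 of the 16 and in 1 of the 8. That median is over single windows, so a gene with several windows reaches it more easily. The same counts for other genes above or under the limit were not made. With the window of fewest CG for each gene, a choice made after seeing the data, the counts were 8 of the 16 and 1 of the 8 and the medians 9.5 and 4, since CD9, CD63, TSPAN4 and TSPAN14 also have CG-poor windows. That 1 was TSPAN2, with the CG-rich stretch printed above. TSPAN8 was the opposite case, with 1 and 2 CG in its 2 windows and a control signal above the limit. TSPAN10 (4), TSPAN6 (7) and TSPAN12 (8) were the other members above the limit with fewer than 11. A CG count describes these letters only, and which start SH-SY5Y cells use was not analysed here.

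**Figure D4:**
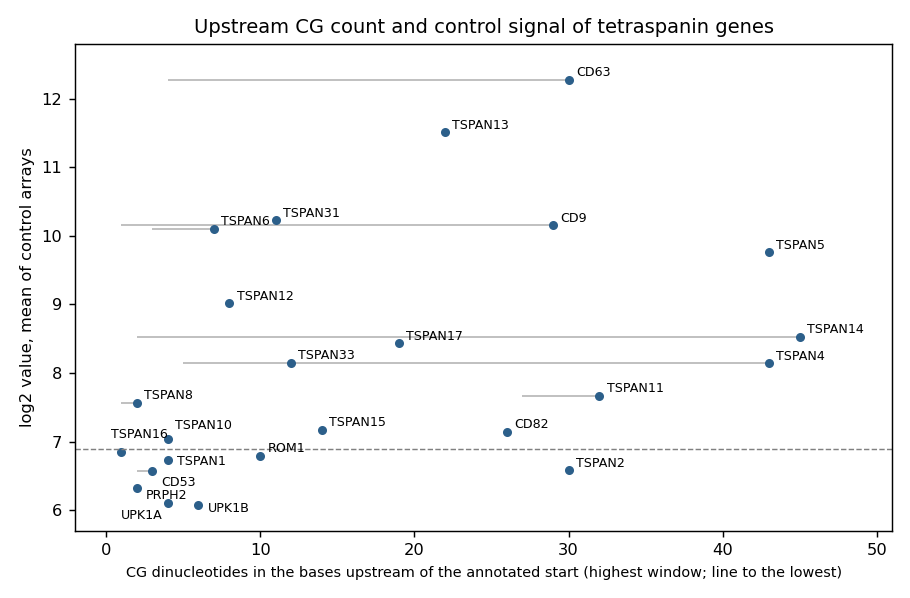
Log2 value averaged over the control arrays (y axis) against the number of CG dinucleotides in the 250 bases upstream of the annotated start (x axis) for 24 tetraspanin genes. Points mark the window with most CG and lines reach to the window with fewest, and the dashed line is the background limit. Of the 8 genes at or under the limit, only TSPAN2, with 30 CG, has at least 11.

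Known partners of tetraspanins were read from 8 lists with 99 genes, of which 95 were measured. None passed the test (limma, 0 of 95), and at an unadjusted p under 0.05 there were 8 lower and 3 higher (11.6%, beside 7.96% of all 19775 genes). The median log2 difference over the 95 was -0.00040, and 48 were below control, beside 55.6% of all 19775 genes. The values of 2 genes per list, those with the smallest p, follow, and each is a log2 difference that did not pass.

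Among 24 integrin subunits the median was 0.032, and 17 were above control, beside 8787 of all 19775 genes. ITGA2B, the platelet integrin subunit, read 6.59 and 6.61 on the knockdown arrays, against 6.37 and 6.40 on the control arrays, all under the background limit (log2 difference 0.22, adjusted p = 0.58). The 4 probe sets of ITGA2B ranged from 0.0034 to 0.22. ITGA6, a laminin receptor subunit that binds CD151, differed by 0.15 (limma, adjusted p = 0.65) and by 0.086 at its other probe set. Among 15 adhesion partners the median was -0.042. CD46, a complement regulator, read 9.83 and 9.88 on the knockdown arrays, against 10.24 and 10.37 on the control arrays (log2 difference -0.45 ± 0.061, SE; limma, adjusted p = 0.37). Its groups did not overlap at this probe set, but its 3 probe sets ranged from -0.45 to 0.032. For L1CAM, which guides axons, the probe sets gave -0.20 and 0.025.

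The 14 proteases and growth factor genes, ADAM10 among them, had a median of 0.0028, with MET at -0.040 and MMP2 at -0.048, and 0 had an unadjusted p under 0.05. Of 12 signalling genes, 9 were below control, beside 55.6% of all genes, and the median was -0.041. An unadjusted p under 0.05 was reached by 3, all lower, beside 7.96% of all genes in either direction. PI4K2A, a lipid kinase found in tetraspanin complexes, differed by -0.17 and the kinase gene SRC by -0.15. The 3 probe sets of PI4K2A ranged from -0.17 to -0.0082, and the 7 of SRC disagreed in sign, from -0.15 to 0.10. Of 15 vesicle genes, 11 were below control, beside 55.6% of all genes, and the median was -0.041. HGS, which sorts cargo into multivesicular bodies, differed by -0.16 and -0.041 at its 2 probe sets. VPS4A, the ATPase that recycles the sorting machinery, differed by -0.13. In the Norrin and Wnt list, with 4 genes measured, the 2 probe sets of LRP5 gave -0.16 and 0.065. Those of FZD4, the receptor that TSPAN12 assists, gave 0.13 and 0.0185. UPK3A and UPK2, partners of UPK1A and UPK1B in urothelial plaques, differed by 0.082 and -0.025 and lay under the background limit, as did the third gene of that list. Of 8 palmitoylation and related genes, ZDHHC2, which attaches palmitate to tetraspanins, differed by 0.11 and CMTM6 by 0.085. The probe sets of both genes disagreed in sign, with the lowest at -0.054 for ZDHHC2 and -0.015 for CMTM6, and so did those of MET and MMP2.

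**Figure D5:**
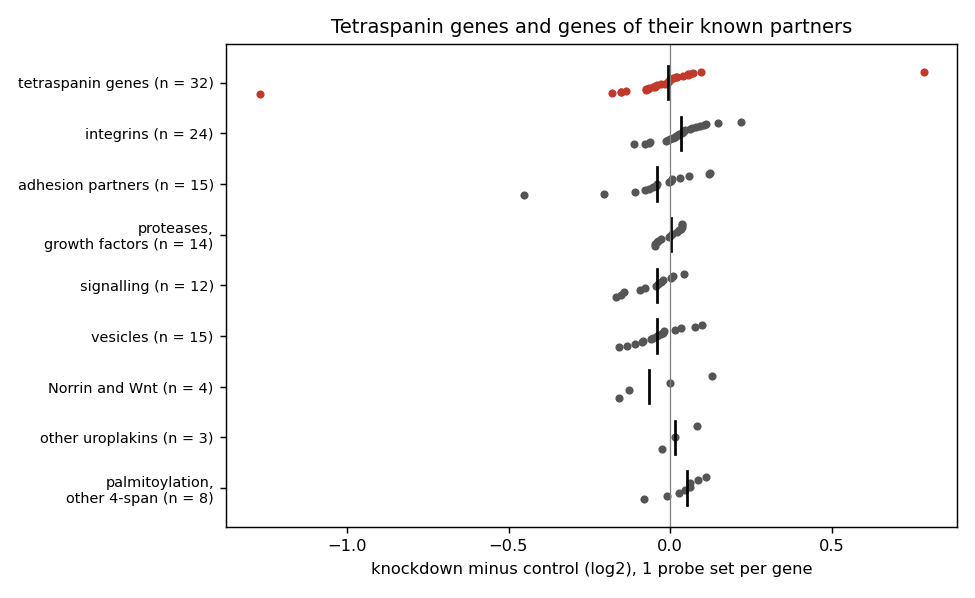
Difference, knockdown minus control (log2, x axis), of the 32 measured tetraspanin genes and of the genes in 8 partner lists, 1 point per gene, with the median of each list as a vertical bar. TSPAN8 at -1.27 and TSPAN2 at 0.78 are the outermost points, and CD46 at -0.45 is the next.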

How the data were processed

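The authors deposited 1 table of log2 expression values, 1 per probe set and array. Per the submitters' processing notes RMA and R 3.0.1 were used, with no settings given, and 100 ng of RNA was amplified per the labels' protocols. The 62 AFFX controls were left out of the 54675 rows. Genes were named through the platform annotation, and all 60 member probe sets matched a current RefSeq gene identifier with the same symbol. Per gene, the probe set of highest mean over the 4 arrays stood for it.

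The contrast, knockdown minus control, was fitted in limma 3.58.1 (lmFit, eBayes, R 4.3.3) over all 54613 probe sets and 4 arrays, without covariates, with Benjamini-Hochberg adjustment, two-sided, threshold 0.05. The fit was tested on simulated data with independent noise drawn from its own variance estimate. That checked the calculation only and cannot speak to pairing or technical replication of these samples. Intervals are 95% from the moderated standard error. With 2 arrays per group the number of arrays limits the precision.

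The members, the lists and the rule for named genes (every member, and 2 genes per partner list by p) were chosen with earlier results of these data known. Alternatives were filters on dim probe sets, other normalization, variance models, array weights, a block for the replicate number, other representatives, other thresholds and leaving out each array. Scanner files and detection calls were not used here. Figures were drawn with matplotlib 3.10.9.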

Additional observations from a re-analysis of the deposited data

How the results depend on the processing

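The fall of TSPAN8 held its sign in all alternatives and passed the test in each except the replicate block, where it was -1.27 (limma, adjusted p = 0.16). There, 0 member probe sets and 0 probe sets in all passed, in a fit with fewer residual degrees of freedom. No label states whether samples of equal number are paired. Deviations of equal numbers correlated at 0.051 over all probe sets, but 2 pairs cannot decide whether they shared a culture or day. Outside the replicate block the adjusted p of TSPAN8 (limma) ranged from 5.1e-05 to 0.0028, apart from the far lower values with a lone knockdown array. With 1 array left out, TSPAN8 ranged from -1.32 to -1.22, TSPAN2 from 0.63 to 0.94, the other members past the threshold from 0 to 1 (TSPAN2), the member probe sets called from 1 to 2, all probe sets called from 1 to 1026 and the median of the other members from -0.028 to -0.0074. The calls of TSPAN2 arose with a lone knockdown array, assumed to vary like the control arrays. Requiring an unadjusted p below 0.01 and a size of 0.58 or more left 2 member probe sets (TSPAN8 and TSPAN2) and 6 in all. TSPAN2 did not pass in any fit of all 4 arrays, with adjusted p from 0.11 (each array centred on its median) to 0.85 (the probe set with the smallest change, at 0.056).

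No other member passed under any alternative run. Outside the fits with an array left out, 8 of the 31 other members changed sign, each close to zero and at no more than 0.031. TSPAN31 was at 0.026, TSPAN6 was at 1.8e-06, TSPAN5 was at 0.026, TSPAN14 was at 0.019, TSPAN9 was at 0.010, TSPAN10 was at -0.0026 and CD37 was at -0.0099 after a second quantile normalization. TSPAN10 was at -0.0059 and CD37 was at -0.011 with each array centred on its median. TSPAN9 was at 0.031 without probe sets that can bind several transcripts. TSPAN5 was at 0.028, TSPAN9 was at 0.012 and UPK1B was at 0.018 as the mean over all probe sets of the gene. With 1 array left out, 13 of the 31 kept their sign and 18 did not: CD63 (-0.025 to 0.10), CD9 (-0.090 to 0.12), TSPAN12 (-0.021 to 0.14), TSPAN7 (-0.063 to 0.17), ROM1 (-0.095 to 0.00074), TSPAN1 (-0.028 to 0.068), CD37 (-0.039 to 0.044), UPK1B (-0.062 to 0.059), TSPAN31 (-0.017 to 0.016), TSPAN6 (-0.15 to 0.094), TSPAN5 (-0.086 to 0.079), TSPAN14 (-0.038 to 0.026), TSPAN9 (-0.085 to 0.073), TSPAN10 (-0.025 to 0.041), TSPAN32 (-0.057 to 0.039), UPK1A (-0.034 to 0.14), TSPAN33 (-0.12 to 0.025), PRPH2 (-0.15 to 0.014). The cause was not tested. The 18 include members above the background limit, among them CD63 with a control mean of 12.28. For members at or under the background limit, signal over background limits what 2 arrays per group can show.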
